A study of Mus musculus with 12 samples.

Results

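Histone deacetylases remove acetyl groups from lysines of histones and other proteins, and 10 of the mouse genes that encode the zinc-dependent enzymes were followed here by their symbols: Hdac1, Hdac2, Hdac3, Hdac4, Hdac5, Hdac6, Hdac7, Hdac8, Hdac9 and Hdac11. All 10 were found among the 17885 genes of the Eed iKO and control table and among the 21915 genes of the hair cycle table, and all 10 passed the filter on low values in both. The cells were hair follicle stem cells (HFSCs) of C57BL/6J back skin, sorted for CD34 and a high level of α6-integrin, with EpCAM and without Sca1, and sequenced as RNA, with 3 libraries in each of 4 groups. Eed iKO mice carried Eed fl/fl alleles and K15-CrePGR, a Cre recombinase fused to a progesterone receptor and driven in the follicle bulge by the K15 promoter. They received 100 µl of RU-486 at 10 mg/ml on the skin each day for 7 days from postnatal day 50 (P50) and were collected at P70. Control mice, labelled wildtype, were collected at P70 after ethanol alone, so that genotype and RU-486 cannot be told apart. Anagen (P28 to P30, growing follicles) and telogen (P50 to P52, resting follicles) libraries came from wildtype mice, so that stage and age cannot be told apart. For these stages the study names more animals than libraries, and whether animals were pooled is not given in the sources used here. P-values measure the spread between these libraries.

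Class I enzymes (Hdac1, Hdac2, Hdac3 and Hdac8) are mainly nuclear. Hdac1 and Hdac2 act as the catalytic pair of the Sin3, NuRD, CoREST and MiDAC corepressor complexes, and Hdac3 acts within NCoR and SMRT. Class IIa enzymes (Hdac4, Hdac5, Hdac7 and Hdac9) bind MEF2 transcription factors and leave the nucleus when kinases of the CaMK, PKD and SIK families phosphorylate them and phosphoserine-binding YWHA proteins hold them. Hdac6 (class IIb) is best known as a cytoplasmic tubulin deacetylase, and Hdac11 is the sole class IV enzyme. In skin, Hdac1 and Hdac2 are known to be needed together for epidermal and follicle development. Sirtuins are deacetylases of a separate, NAD-dependent family.

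Values are normalized counts. In the control and Eed iKO libraries these are read counts per gene divided by a size factor of the library. Hair cycle values were not whole multiples of 1 step, so division by 1 factor per library could not be checked there. The control and Eed iKO libraries rested on 33269583 to 57063586 reads. For the hair cycle libraries the depth is not known, and the 2 tables were normalized separately, so levels are not compared between them. The listed HFSC markers, 14 genes, were above 0 in the libraries of both tables. They hold Cd34, Krt15, Sox9 and Lhx2, and also Krt5, Krt14, Itga6, Itgb4 and Epcam, so the list is not limited to genes that define HFSCs. Their summed normalized count was 246755 in telogen replicate 1 and 541634 to 673052 in the other hair cycle libraries. In control, Krt15 (537242 to 609619) and Krt5 (524198 to 626609) made up most of this sum (1419730 to 1662010). Of the genes behind the sort, Cd34 was lower in anagen (log2 fold change -1.21) and Itga6 higher (0.97), both called by limma. Of the 14 listed, limma called 1 higher and 1 lower there, beside 11.6% of all genes. In Eed iKO over control the log2 fold change was -0.33 for Cd34, 0.41 for Itga6 and 0.18 for Epcam. Limma called 0 of the 14 in that comparison, and 4 had an unadjusted p under 0.05, against 14.7% of all genes. Proliferation markers separated the stages: all 13 were higher in anagen by limma (adjusted p under 0.05), and Mki67 was 276 to 431 in telogen and 10404 to 14954 in anagen. In the libraries labelled Eed iKO, the summed proliferation markers were 17289, 18528 and 7541, against 6780.4 to 8809.8 in control. By limma 0 of the 13 passed there, where 0.0267% of all genes did. At an unadjusted p under 0.05 there were 3, against 14.7% of all genes. All 13 log2 fold changes were above 0, with a median of 1.02 against -0.0011 for all genes tested. Markers of other cells were also read. Immune markers summed to 232, 199 and 473 in control and to 898, 463 and 394 in Eed iKO. Of the 6 tested there, 5 log2 fold changes were above 0 and 1 below, with a median of 1.21, and limma called 0. In the hair cycle libraries immune markers summed to 132 to 235, and the endothelial marker Cdh5 and the muscle markers Myog, Myod1, Des and Tnnt3 were listed at 0. Of the melanocyte and dermal markers, Dct, Col1a1 and Dcn were higher and Mitf lower in anagen. Limma called 1 of 5 melanocyte markers tested higher and 1 lower, and 2 of 6 dermal markers higher, beside 11.6% of all genes. Melanocyte markers summed to 2909 to 3285 in telogen and 1411 to 1495 in anagen. Dermal markers summed to 487 to 875 and 679 to 760, with 3 log2 fold changes above 0 and 3 below. The 8 epidermal markers were uneven between libraries. They summed to 21148, 15768 and 53795 in control and to 25662, 12121 and 69430 in Eed iKO, highest in replicate 3 of both groups. In telogen they summed to 8388 to 17815 and in anagen to 6109 to 14980. In each comparison 4 of their log2 fold changes were above 0 and 4 below, and limma called 0. The part of proliferation and of other cells in the results below was not tested, and in bulk samples fewer cells of a type and less RNA per cell cannot be told apart.

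Eed, the targeted gene, was at 1084, 1249 and 950.2 in control and at 933, 1361 and 1001 in the libraries labelled Eed iKO. The log2 fold change was -0.01 (limma, adjusted p = 0.993), so the counts of Eed do not separate the groups. Counts of the whole transcript may include exons that the floxed alleles keep, and the deleted exons are not given in the sources used here. The paper itself reports lower Eed mRNA in sorted Eed iKO cells by RT-qPCR. It also reports loss at P70 of H3K27me3, a histone mark that depends on Eed, by immunofluorescence. Neither measure is part of these counts, so every difference below in that comparison is between libraries by their labels.

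Promoter sequence of 3 members is shown to set beside the levels, since Hdac2 and Hdac9 had the highest and the lowest level per kb in the hair cycle libraries, and Hdac11 was the member with the most negative log2 fold change in anagen. Each runs from 250 bases before to 50 bases after a RefSeq transcription start (GRCm38.p6), 5′ to 3′ on the strand of the gene. Capitals mark the GC box (GGGCGG), the CCAAT box (CCAAT) and the TATA box (TATAAA), searched on both strands, and no 2 of the marked motifs overlap. The Hdac2 window lies at chr10:36974294-36974593 on the + strand, the Hdac11 window at chr6:91156565-91156864 on the + strand, its start 150 bases downstream of the GENCODE gene start, and the Hdac9 window at chr12:34917046-34917345 on the - strand.
Hdac2: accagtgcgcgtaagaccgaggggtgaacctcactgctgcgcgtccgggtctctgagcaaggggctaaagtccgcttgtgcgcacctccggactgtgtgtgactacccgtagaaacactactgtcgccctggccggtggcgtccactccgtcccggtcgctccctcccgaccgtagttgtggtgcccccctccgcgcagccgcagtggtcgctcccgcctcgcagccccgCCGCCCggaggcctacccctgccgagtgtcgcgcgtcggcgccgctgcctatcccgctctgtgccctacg
Hdac11: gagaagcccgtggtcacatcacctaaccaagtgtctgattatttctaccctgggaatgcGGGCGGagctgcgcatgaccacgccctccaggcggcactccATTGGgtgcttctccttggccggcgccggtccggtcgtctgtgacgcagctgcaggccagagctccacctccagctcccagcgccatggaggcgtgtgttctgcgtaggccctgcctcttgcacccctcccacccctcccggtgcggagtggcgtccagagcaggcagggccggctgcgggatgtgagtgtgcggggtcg
Hdac9: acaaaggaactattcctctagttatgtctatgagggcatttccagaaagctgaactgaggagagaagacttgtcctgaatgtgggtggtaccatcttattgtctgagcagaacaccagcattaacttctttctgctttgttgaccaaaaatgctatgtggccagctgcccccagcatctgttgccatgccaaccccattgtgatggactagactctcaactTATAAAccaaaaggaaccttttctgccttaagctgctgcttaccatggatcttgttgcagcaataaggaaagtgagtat
The Hdac2 window held 36 CG dinucleotides and 1 GC box, read here as its reverse complement. As many CG or more were found in 6.23% of all 32851 windows of this length, whose median was 7. The Hdac11 window held 22 CG, 1 GC box and 1 CCAAT box, the latter as its reverse complement, and 23.1% of windows had as many CG or more. The Hdac9 window held 0 CG and 1 TATA box, and 5.43% of windows had as few. A GC box was present in 35.7% of all windows, a CCAAT box in 37.4% and a TATA box in 13.6%. Windows not shown vary. The Hdac6 window held 20 CG and 5 GC boxes, Hdac7 windows held 6, 35, 31 and 5 CG, and another Hdac9 window held 3 CG and 0 TATA boxes. Whether CG content goes with level was not tested. These are matches of letters only, and which start the HFSCs used was not measured.

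The 10 genes spanned a wide range of levels. Levels are compared between genes as normalized count per kb, using the median length of the coding transcripts of each gene. In control, Hdac4 was highest at 2935 ± 162 (SD, n = 3), followed by Hdac1 at 2100.1 ± 113. Hdac2 at 1327 ± 246 and Hdac5 at 1279 ± 146 came next, with overlapping ranges. Hdac3 at 808 ± 129 stood apart from both. Hdac7 at 602 ± 109, Hdac11 at 509.97 ± 362 and Hdac6 at 262 ± 105 overlapped each with its neighbour. Hdac8 at 123 ± 13.9 and Hdac9 at 17.0 ± 7.35 closed the order and were apart from the genes above them. Among the 15008 genes tested with them, 91.1% lay below Hdac4, 87.3% below Hdac1, 34.8% below Hdac8 and 9.2% below Hdac9 (mean per kb of all 6 libraries).

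The libraries labelled Eed iKO had the same order but for Hdac11 (595 ± 81.1) and Hdac7 (454 ± 70.8), which swapped places and overlapped in both groups at this transcript length. Hdac4 was again highest at 2928 ± 142. Hdac1 (2137 ± 316) and Hdac2 (1607 ± 229) overlapped there, and Hdac9 was lowest at 9.38 ± 3.87.

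In telogen, Hdac2 led at 907 ± 243, and overlapped Hdac1 at 503 ± 257, which in turn overlapped Hdac4 at 422 ± 69.1. Hdac3 followed at 125 ± 27.0 and began a run of genes with overlapping neighbours: Hdac5, Hdac11, Hdac6, Hdac8 and Hdac7, the last at 36.4 ± 16.7. Hdac9 was lowest at 13.5 ± 1.69. In anagen the upper order was distinct, with Hdac2 at 1327 ± 58.6, Hdac1 at 1009 ± 48.6, Hdac4 at 570.1 ± 92.5, Hdac3 at 213 ± 54.8 and Hdac5 at 76.8 ± 5.91, none of which overlapped the next. Hdac8, Hdac7, Hdac6 and Hdac11 lay between 33.5 and 47.5 and overlapped, and Hdac9 was lowest at 8.67 ± 3.93. Of the 13457 genes tested there, 91.8% lay below Hdac2, 87.9% below Hdac1, and 11.6% below Hdac9.

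**Figure D1:**
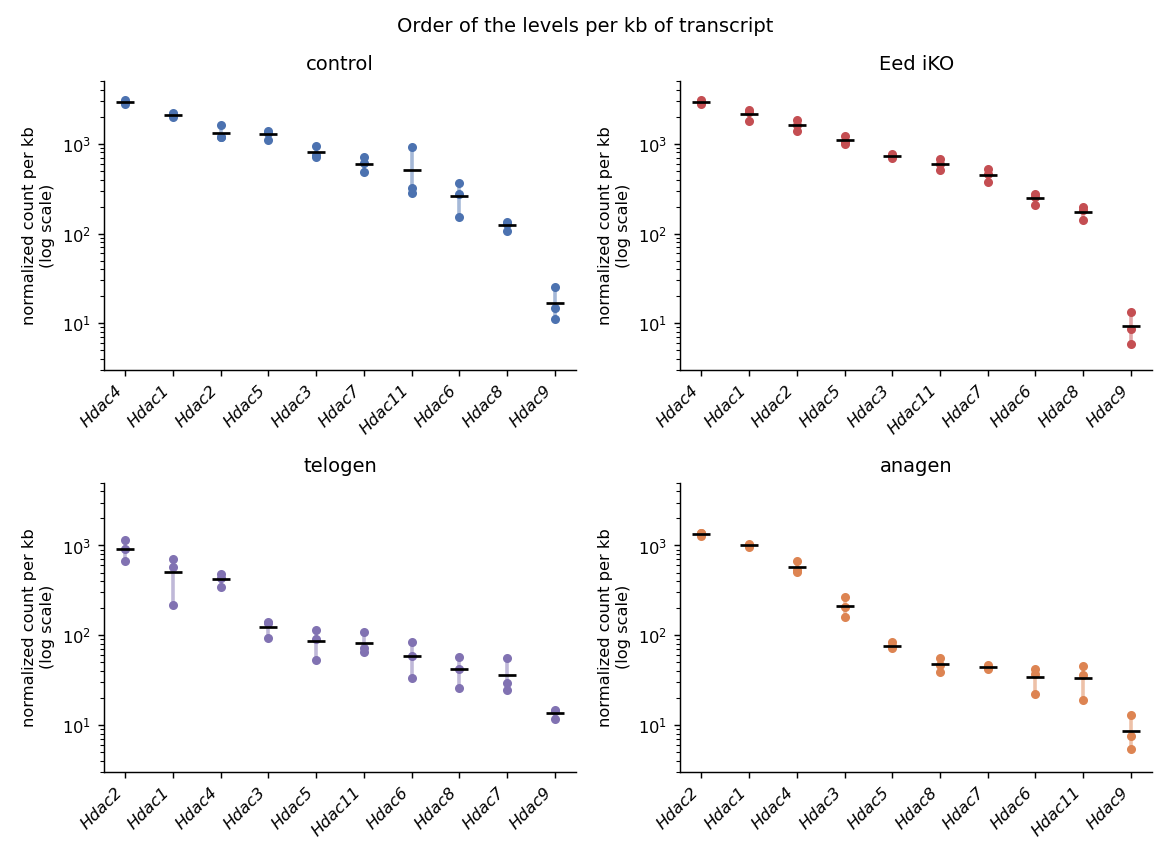
Normalized count per kb of transcript (log scale) for the 10 histone deacetylase genes, ordered by mean, in each of 4 groups. Points are the 3 libraries, vertical lines their range and black dashes the mean. Hdac4 is first in control (2935) and Eed iKO (2928), Hdac2 is first in telogen (907) and anagen (1327), and Hdac9 is last in all 4 groups.

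Place in the order depended on transcript length for Hdac4, whose median coding transcript has 2437.5 bases and whose longest has 8100 bases. With the longest transcript, Hdac1 was highest in control (2100.1) and Hdac4, at 883, came after Hdac2 and Hdac5, overlapping Hdac5. Hdac2 was still first in telogen and anagen, and in anagen it then overlapped Hdac1. Hdac7 then lay above Hdac11 in both control (561 against 240.5) and Eed iKO (424 against 281), with no overlap in either. As a share of the summed level of the 10 genes, class I took 43.9% ± 4.49 (SD, n = 3) in control and 46.5% ± 3.01 in Eed iKO. It took 69.2% ± 4.35 in telogen and 77.2% ± 1.88 in anagen, where the libraries ranged from 64.3% to 72.6% and from 75.4% to 79.2%. With the longest transcript these shares were 58.7%, 62.1%, 81.3% and 88.0%. Hdac11 took 2.91% to 5.04% of the summed level in telogen and 0.577% to 1.25% in anagen.

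Reads of some members may belong to overlapping genes, since the sources used here do not state that strand was used. In GENCODE, 22.36% of the exon bases of Hdac4 (chr1:91928779-92195699, - strand) are shared with Gm26720, a noncoding RNA of the other strand. For Hdac11 (chr6:91156665-91174692, + strand), 17.93% are shared with Gm14573 and Gm44002 on the other strand. Values of both genes are uncertain for this reason, and how many reads fall in the shared bases was not measured. The shared part was 1.26% for Hdac5, 0.43% for Hdac7 and 0 for the other 6 genes.

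To ask whether the deacetylase genes differ after the Eed deletion, the libraries labelled Eed iKO were compared with control. None of the 10 genes was called: 0 passed at an adjusted p under 0.05 by limma, by edgeR or by DESeq2, where limma called 0.0267% of all 15008 genes (0.02% higher and 0.00666% lower in Eed iKO), edgeR 0.0333% and DESeq2 4.52%. DESeq2 gave Hdac9 no adjusted p, so that gene could not be called by DESeq2. By limma, 0 had an unadjusted p under 0.05, against 14.7% of all genes. The thresholds of the study methods, an absolute log2 fold change over 1.5 with an unadjusted p under 0.05, gave 0 of the 10 and 1.75% of all genes. A figure legend of the paper gives another rule, an absolute fold change of at least 1.5 with an adjusted p under 0.05. That rule was not applied here, and 0 of the 10 could meet it, since 0 passed the adjusted p. The median log2 fold change of the 10 was -0.01 and that of all genes tested -0.00.

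Of class I, Hdac1 was at 4016, 4376 and 4447 in control and at 4820.3, 4624 and 3619 in Eed iKO. The groups overlapped, with a log2 fold change of 0.02 and a 95% interval of -0.32 to 0.35. Hdac2, its close paralogue, was at 4234, 3096 and 3132 in control and at 4820.3, 4231 and 3617 in Eed iKO. Control replicate 1 lay among the Eed iKO values, and the log2 fold change was 0.28 (interval -0.10 to 0.67). Hdac3 was at 1939, 1542 and 1445 in control and at 1496, 1398 and 1562 in Eed iKO, giving a log2 fold change of -0.13 (interval -0.53 to 0.26).

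Hdac8, a class I enzyme known for deacetylating cohesin, was the one member whose groups did not overlap, which 20.2% of all genes also did not (10.2% with higher values in Eed iKO). It was at 208, 260.0 and 247 in control and at 355, 378 and 273 in Eed iKO. All 3 Eed iKO libraries were above the control libraries, replicate 3 by the least. The log2 fold change was 0.48 (SE 0.32, interval -0.21 to 1.18, limma adjusted p = 0.504), so the difference did not pass. Without Eed iKO replicate 3, whose proliferation markers were at the control level, it was 0.63 and did not pass either.

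Of class IIa, Hdac4 had the narrowest interval of the 10. It was at 6756, 7548 and 7158 in control and at 6837, 7516 and 7058 in Eed iKO. Its log2 fold change was -0.00, with an interval of -0.28 to 0.28. Hdac5 was at 4184, 5009.9 and 5227 in control and at 4560.1, 3957 and 3784 in Eed iKO (log2 fold change -0.23, interval -0.56 to 0.10). Hdac7 was at 1920.4, 2778 and 2415 in control and at 1490.3, 1837 and 2043 in Eed iKO. Its groups overlapped through control replicate 1, and its log2 fold change of -0.40 (SE 0.19, interval -0.83 to 0.03) had the lowest adjusted p of the 10 by limma (0.365). Hdac9 had few counts, at 74.2, 32.5 and 43.5 in control and 39.8, 17.3 and 25.7 in Eed iKO. The groups overlapped, and its interval was the widest, from -2.30 to 0.64 around a log2 fold change of -0.83.

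Hdac6, the tubulin deacetylase, was at 509.9, 1218 and 923 in control and at 869.9, 924 and 694 in Eed iKO. Control spanned the Eed iKO values, and the log2 fold change was -0.01 (interval -0.70 to 0.67). Hdac11 was at 355, 399.7 and 1159.7 in control and at 643, 846 and 745 in Eed iKO. Replicate 3 of control stood far above the other control libraries and above all Eed iKO values. This library also had the highest sum of epidermal markers in control, and whether the 2 go together was not tested. With control replicate 3 the log2 fold change was 0.43 (interval -0.46 to 1.32), and without it 0.97, where the gene was not called either.

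**Figure D2:**
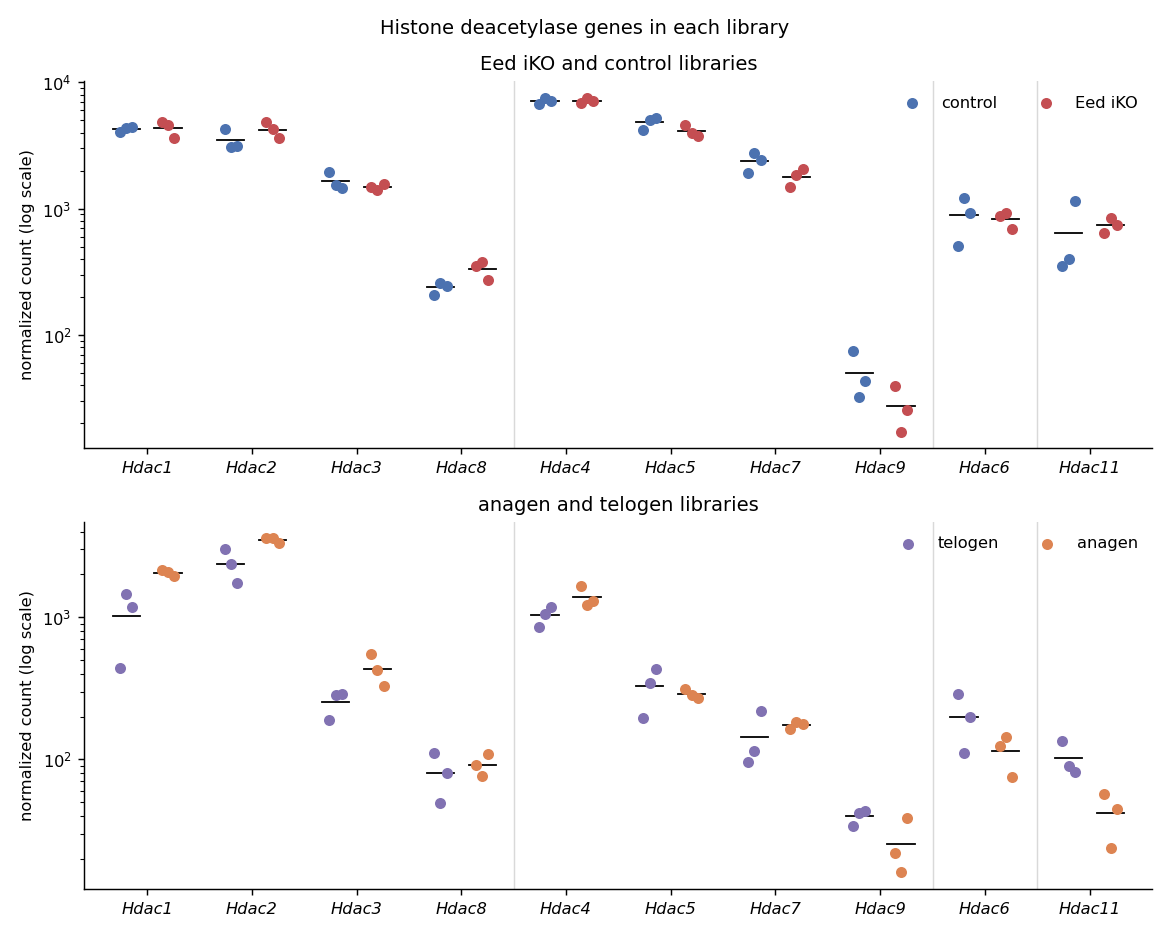
Normalized counts (log scale) of the 10 genes in each library, with control and Eed iKO above and telogen and anagen below. Points are libraries, black lines group means, and grey lines separate class I, class IIa, class IIb and class IV. The control points of Hdac11 range from 355 to 1159.7, and the 3 anagen points of Hdac1 (1948 to 2143) lie above its telogen points (441 to 1453).

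To ask whether the genes differ between growing and resting follicles, anagen was compared with telogen. By limma 0 of the 10 genes were called at an adjusted p under 0.05, where 11.6% of all 13457 genes tested were (7.22% higher and 4.35% lower in anagen). With the thresholds of the study methods, here an absolute log2 fold change over 2, 0 of the 10 passed, and 5.1% of all genes. At an unadjusted p under 0.05 there were 4 (Hdac1, Hdac2, Hdac3 and Hdac11), against 27.3% of all genes. No test on counts was run for this table, from which whole reads were not recovered. The groups of 5 members did not overlap, Hdac1, Hdac2, Hdac3 and Hdac4 with higher and Hdac11 with lower values in anagen. Of all genes 33.3% did not overlap, 18.1% higher and 15.2% lower in anagen. The median log2 fold change of the 10 was 0.31, against 0.01 for all genes tested.

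Hdac1 was at 441, 1453 and 1181 in telogen and at 2143, 2076 and 1948 in anagen. The anagen libraries lay close together and above all telogen libraries, of which replicate 1 was far below the other two. The means were 1025 ± 524 and 2056 ± 99.1 (SD, n = 3). Its log2 fold change was 1.17 (SE 0.37, interval 0.37 to 1.98) with an adjusted p of 0.0625 by limma, the lowest of the 10 genes. Telogen replicate 1 was also the library with the low sum of the listed HFSC markers. Without it the log2 fold change was 0.65, and Hdac1 then passed (limma, adjusted p = 0.0481). It also passed without telogen replicate 2, with a log2 fold change of 1.51 (limma, adjusted p = 0.029). Over the alternatives tried the adjusted p of Hdac1 ranged from 0.029 to 0.18.

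Hdac2 was at 3024, 2379.8 and 1746 in telogen and at 3574, 3577 and 3309 in anagen. The groups were apart, with telogen replicate 1 nearest to anagen, the reverse of its place for Hdac1. The log2 fold change was 0.58 (SE 0.22, interval 0.11 to 1.06, limma adjusted p = 0.108). Without telogen replicate 1 it was 0.77, and Hdac2 then passed (limma, adjusted p = 0.0244; range over the alternatives 0.0244 to 0.28). Without telogen replicate 3 it was 0.38 and did not pass (limma, adjusted p = 0.249).

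Hdac3 was at 189.8, 282 and 288 in telogen and at 548, 422 and 326 in anagen. All anagen libraries were higher, replicate 3 by little. The log2 fold change was 0.76 (SE 0.30, interval 0.10 to 1.43, limma adjusted p = 0.131). Hdac8 was at 112, 49.6 and 80.8 in telogen and at 91.3, 76.2 and 109 in anagen. Its groups overlapped, with a log2 fold change of 0.25 (interval -0.71 to 1.21). The median over the 4 class I genes was 0.67, against 0.14 over the 4 class IIa genes, which describes the lists and was not tested.

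Of class IIa, Hdac4 was at 849, 1058 and 1182 in telogen and at 1646, 1224 and 1298 in anagen. The groups were apart, but by less than the spread within either, and the log2 fold change was 0.43 (SE 0.22, interval -0.04 to 0.91, limma adjusted p = 0.222). Hdac5 was at 197, 345 and 434 in telogen and at 313, 284 and 269 in anagen (log2 fold change -0.10, interval -0.82 to 0.62). Hdac7 was at 96.6, 115 and 218 in telogen and at 164, 184 and 176 in anagen (log2 fold change 0.37, interval -0.46 to 1.21). For both, the telogen libraries spanned the anagen values. Hdac9 was at 34.0, 42.2 and 43.1 in telogen and at 22.0, 16.1 and 38.4 in anagen, overlapping through anagen replicate 3 (log2 fold change -0.70, interval -1.91 to 0.51).

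Hdac11 was at 136, 89.5 and 81.3 in telogen and at 56.7, 24.0 and 44.9 in anagen. All anagen libraries were below all telogen libraries. The log2 fold change was -1.31 (SE 0.48, interval -2.38 to -0.25, limma adjusted p = 0.106), and the adjusted p ranged from 0.101 to 0.315 over the alternatives. Without telogen replicate 1 the log2 fold changes of Hdac3, Hdac4 and Hdac11 were 0.57, 0.30 and -1.09, and none of the 3 genes was called. Hdac6 was at 287, 112 and 198 in telogen and at 124, 144 and 75.0 in anagen. Its groups overlapped through telogen replicate 2, with a log2 fold change of -0.74 (interval -1.69 to 0.20).

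**Figure D3:**
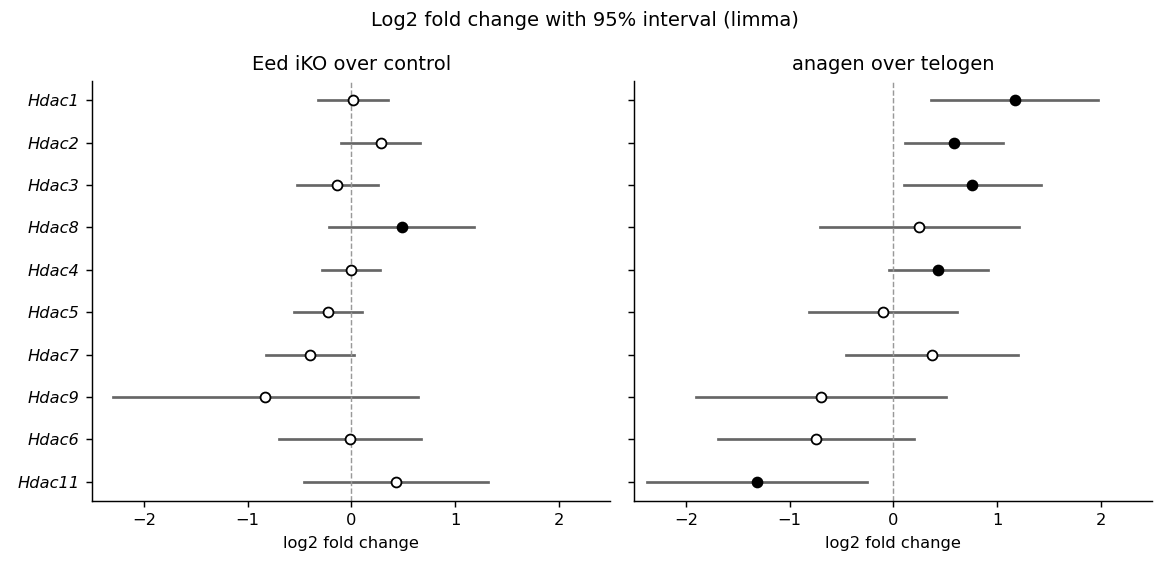
Log2 fold change (limma) of each gene with its 95% interval for Eed iKO over control and anagen over telogen. Filled points mark genes whose groups of 3 libraries did not overlap. Hdac8 (0.48) is the filled point on the left, and Hdac1 (1.17), Hdac2 (0.58), Hdac3 (0.76), Hdac4 (0.43) and Hdac11 (-1.31) are those on the right.

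The SD as a percent of the mean was smaller in anagen than in telogen for 7 of the 10 genes and larger for 3, and this was not tested. For Hdac1 it was 51.1% in telogen and 4.82% in anagen, and for Hdac4 it was nearly level at 16.4% and 16.2%. The 3 with the larger value in anagen were Hdac3 (21.7% and 25.8%), Hdac9 (12.5% and 45.3%) and Hdac11 (28.6% and 39.6%). Between control and Eed iKO the value was smaller in Eed iKO for 8 of the 10 genes. It was larger for Hdac1 (5.4% in control and 14.8% in Eed iKO) and Hdac8 (11.3% and 16.5%). Hdac4 was at 5.53% in control and 4.85% in Eed iKO, and Hdac11 at 70.9% in control and 13.6% in Eed iKO. The same counts were not made over all genes. Each library's mean correlation with the others of its group was 0.915 to 0.923 in telogen and 0.951 to 0.957 in anagen. It was 0.9345 to 0.9359 in control and 0.9481 to 0.9566 in Eed iKO. So a smaller spread is not shown to be particular to the 10 genes.

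The partners of these enzymes and the sirtuins, a separate family, were then examined as 7 lists, with 73 distinct genes. Counts of partner genes given here include the sirtuins. In the Eed iKO comparison 0 of the 73 were called by limma and 0 by edgeR, while DESeq2 called 4 (Mbd2, Mbd3, Dnttip1 and Mef2d), which is 5.48% beside 4.52% of all genes. At an unadjusted p under 0.05 limma had 11 (15.1%, against 14.7% of all genes), and the median log2 fold change was -0.06. Mbd2 and Mbd3, methyl-CpG-binding proteins of NuRD, are named here after their values were seen. Mbd2 was at 3532, 3967 and 4080.2 in control and at 6751, 7442 and 5776 in Eed iKO, with a log2 fold change of 0.78 (limma, adjusted p = 0.0899). Mbd3 was at 1169.7, 1389.8 and 1222 in control and at 2509, 2293 and 2059 in Eed iKO, with a log2 fold change of 0.86 (limma, adjusted p = 0.0917). For both, all Eed iKO libraries were above all control libraries, as for 10.2% of all genes. DESeq2 on recovered reads gave an adjusted p of 0.000579 for Mbd2 and 0.000716 for Mbd3, and both genes were called in 4 of the 14 alternatives. Other partner genes were lower in Eed iKO. Mef2d had a log2 fold change of -0.54 (limma, adjusted p = 0.132) and was called lower in 3 of the 14 alternatives. Of the 13 class IIa kinases, 10 were below 0 and 3 above, and limma called 0. They summed to 37842.5 to 39880 in control and 26996 to 31767 in Eed iKO, and were also singled out after their values were seen.

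Between anagen and telogen, 10 of 70 partner genes tested were called by limma (14.3%, against 11.6% of all genes), 8 higher and 2 lower in anagen. The median of the 70 was 0.10 (log2). Of the Sin3 list 1 of 15 was higher (Rbbp7), of NuRD 2 of 13 (Chd3 and Rbbp7, which both lists hold), of CoREST and MiDAC 1 of 11 (Rcor1), and of NCoR and SMRT 1 of 5 (Tbl1xr1). None of these lists had a member called lower.

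Chd3, an ATP-dependent remodeller of NuRD, was at 559, 255 and 533 in telogen and at 1713, 2342 and 1951 in anagen, and rose by 2.23 on the log2 scale (SE 0.30, limma adjusted p = 0.00109). It stood above telogen in every anagen library. Rbbp7, a histone-binding subunit, was at 1664, 1742 and 1653 in telogen and at 3717, 3095 and 2912 in anagen (log2 fold change 0.93, limma adjusted p = 0.00786). Rcor1, the scaffold of CoREST, was at 1014, 1296 and 1235 in telogen and at 2178, 2734 and 1999 in anagen (0.96 on the log2 scale, limma adjusted p = 0.0128). Tbl1xr1, a subunit of the NCoR and SMRT complexes, was at 2295, 3150.0 and 3475 in telogen and at 5766, 5649 and 5252 in anagen (0.92 on the log2 scale, limma adjusted p = 0.0127). None of these 4 genes overlapped between the stages, nor did 33.3% of all genes, and the 4 had been picked by their adjusted p.

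Of the class IIa partners 1 of 10 tested rose, the YWHA gene Ywhaz, from 15575 to 26979 in telogen to 35015 to 40558 in anagen (log2 fold change 0.81, limma adjusted p = 0.0359). The kinases were split, with 2 of 11 higher and 2 lower. Sik2, a salt-inducible kinase, was at 1993, 2133 and 2000.0 in telogen and at 831, 938 and 896 in anagen, and fell by 1.20 on the log2 scale (limma, adjusted p = 0.00234). Camk1, a calcium and calmodulin-dependent kinase, was at 160.0, 216 and 235 in telogen and at 40.5, 107 and 70.3 in anagen (log2 fold change -1.56, limma adjusted p = 0.0387). Camk4 of the same family was at 378, 457 and 511 in telogen and at 669.9, 788 and 1054 in anagen (0.88 on the log2 scale, limma adjusted p = 0.0443). Prkd3, a protein kinase D, was at 722, 555 and 641 in telogen and at 999.6, 1112 and 1023 in anagen (0.72 on the log2 scale, limma adjusted p = 0.0494). All 4 kinases had groups that did not overlap, as did 33.3% of all genes, and the 4 had been picked by their adjusted p.

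Of the 7 sirtuins 1 rose. Sirt1, a nuclear deacetylase, was at 401, 657 and 538 in telogen and at 1237, 1243 and 1157 in anagen (log2 fold change 1.21, SE 0.23, limma adjusted p = 0.00782). Chd3, Sik2 and Sirt1 were called in all 12 alternatives that kept the adjusted p, Rbbp7 in 10, Rcor1 and Tbl1xr1 in 9, Camk1 in 6, Ywhaz in 5, and Camk4 and Prkd3 in 2. Without anagen replicate 1, 3 partner genes were called.

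**Figure D4:**
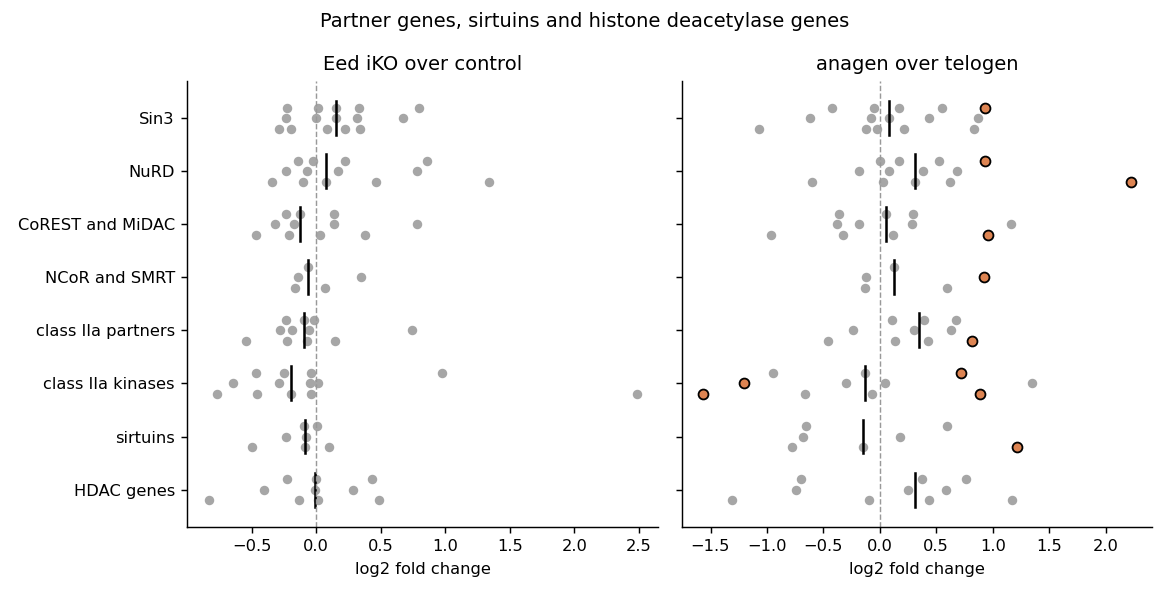
Log2 fold changes (limma) of the partner lists, the sirtuins and the histone deacetylase genes for Eed iKO over control and anagen over telogen. Each point is a gene, black bars are list medians and orange points are genes called at an adjusted p under 0.05. On the right, the 10 called genes run from -1.56 (Camk1) to 2.23 (Chd3), with Rbbp7 drawn in both lists that hold it, and none of the deacetylase genes is called on either side.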

How the data were processed

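RNA of sorted HFSCs was measured in 12 libraries, grouped by their labels. The authors mapped reads with kallisto (0.42.5, per the labels) to Gencode vM20 transcripts, and the deposited signal per gene is a normalized count. For control and Eed iKO it is a count divided by a DESeq2 size factor, which could not be checked for the hair cycle libraries. Columns of the authors' own comparisons (fold changes, standard errors and p-values) were not used. Each table was fitted on its own with limma (3.58.1) on log2(signal + 1) with an intensity trend, over genes passing filterByExpr at a count minimum of 10 (edgeR 4.0.16), which kept 15008 and 13457 genes. Fold changes are on that scale, which understates those of low genes. Genes with a Benjamini-Hochberg adjusted p under 0.05 over all genes tested were called, with no covariate. In the table of control and Eed iKO libraries, 100% of low values were whole multiples of 1 read (tolerance 0.001), and edgeR and DESeq2 (1.42.0) were run on the recovered reads. In the hair cycle table at most 1.397% were. Coordinates and lengths came from GENCODE vM21 (GRCm38), to which 17879 and 21915 identifiers matched, and promoter windows from RefSeq, with 8 of the 10 members used. The scripts were tested on simulated data.

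Genes named were every member, Eed, Mki67 and, of each partner list, those called (at most the 4 with the largest change). Mbd2, Mbd3, Dnttip1 and Mef2d, and the marker genes singled out, were chosen after their values were seen. The members and lists were chosen with earlier results of these data known. Alternatives were a pseudocount of 0.1, no filter, TMM scaling, no trend, a block for the replicate number, leaving out each library, edgeR and DESeq2, the thresholds of the study's methods, and the longest transcript. Library weights were added after the data were seen.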

Additional observations from a re-analysis of the deposited data

How the results depend on the processing

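In the Eed iKO comparison 0 of the 10 members were called under every alternative, and of 140 member log2 fold changes 131 kept their direction and 9 reversed. In the hair cycle 112 of 120 kept their direction and their side of the threshold, 6 newly passed and 2 reversed. There, 1 member passed with the replicate number as a block (Hdac1, limma adjusted p = 0.043), 2 with library weights (Hdac1, adjusted p = 0.033, and Hdac2, adjusted p = 0.0381) and 0 to 2 with a library left out (range of the adjusted p over the alternatives, 0.029 to 0.18 for Hdac1 and 0.0244 to 0.28 for Hdac2). Called partner genes went from 0 to 4 with the block, 4 with DESeq2, 5 with library weights and 0 to 2 with a library left out for Eed iKO, where the 2 were called without Eed iKO replicate 3. They went from 10 to 1 with the thresholds of the methods, 6 with no filter, 3 without the trend and 3 to 11 with a library left out for anagen, where 3, 5 and 6 were called without anagen replicate 1, anagen replicate 2 and telogen replicate 3. The cause was not tested. The log2 fold changes that reversed were all of members that were not called, with a library left out. They ranged from -0.064 to 0.14 (Hdac1), from -0.0435 to 0.0364 (Hdac4) and from -0.36 to 0.26 (Hdac6) for Eed iKO, and from -0.42 to 0.14 (Hdac5) and from -0.0596 to 0.52 (Hdac8) for anagen. The class I share with the longest transcript was 58.7% in control, 62.1% in Eed iKO, 81.3% in telogen and 88.0% in anagen.

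Over all genes, the Eed iKO comparison called 4 genes with limma, 5 with edgeR, 679 with DESeq2, 424 with the block, 561 with library weights, 2 without the trend, and 188 without Eed iKO replicate 3 (1 without each other library). Anagen over telogen called 1556, against 842 without the trend and 590 to 1534 with a library left out. Same-numbered libraries correlated at 0.039, 0.068 and 0.193 for control and Eed iKO and at -0.035, -0.071 and -0.029 for telogen and anagen (deviations from group means). Libraries of different numbers correlated at -0.145 to 0.077 and at -0.017 to 0.055. For control and Eed iKO the highest value was that of the 2 libraries numbered 3. What same-numbered libraries share is not given in the sources used here, and was not tested. With 3 libraries a group, intervals of the members were from 0.28 to 1.47 (log2) on either side, which limits what could be called.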

Other observations

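The ratio of Hdac1 to Hdac2 within a library, from normalized counts per kb, was 0.773, 0.748 and 0.759 in anagen and 0.188, 0.787 and 0.872 in telogen, where replicate 1 stood apart. In the separately made table it was 1.22, 1.82 and 1.83 in control and 1.29, 1.41 and 1.29 in the libraries labelled Eed iKO. The tables were normalized apart, so the values are given side by side without a test. In Eed iKO replicate 1, Hdac1 and Hdac2 were listed at the same normalized count, 4820.3.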
